A study of Arabidopsis thaliana with 12 samples.

Results

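The arabinogalactan proteins (AGPs) and the fasciclin-like arabinogalactan proteins (FLAs) of Arabidopsis thaliana were followed across 12 RNA-seq libraries. They were taken as the rows of the deposited gene table whose symbol was FLA or AGP followed by a number, without FLA11 and FLA12. Of 34218 genes in the table, 49 met that rule, 19 of them FLA and 30 AGP genes. The 33 with a mean of at least 1 FPKM over the 12 libraries (11 FLA and 22 AGP genes) are described, and 16 lay below that level. FPKM is the number of fragments per kilobase of exon, scaled to the number of mapped fragments of the library, so it can be compared between genes of different length.

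The seedlings were 14 days old and the tissue was labelled as leaves. Wild-type Col-0 was compared with a line that carries pTaF5H1:TaF5H1, the TaF5H1 gene behind its own promoter. Each genotype spent 6 h either in nutrient solution without added salt or with 200 mM NaCl, which gave 4 groups of 3 libraries, called biological replicates by the submitters. How many independent transgenic lines were used, how many plants were pooled per library and in which cells the promoter is active is not given in the sources used here, and neither is whether the line is a single clone.

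AGPs are cell surface proteins whose proline residues are hydroxylated and then loaded with branched arabinogalactan chains, so that sugar makes up most of the mass. Many are held at the plasma membrane by a glycosylphosphatidylinositol (GPI) anchor. Classical AGPs are mostly one long run rich in Pro, Ala, Ser and Thr; the lysine-rich AGPs carry a short basic stretch in that run; the AG peptides are very short forms; and chimeric AGPs join it to another domain. FLAs combine AGP-type stretches with fasciclin domains, folds found in cell adhesion proteins of animals as well, and are sorted into groups A to D. FLA4, also called SOS5, was found through a mutant whose root cells swell on salt medium.

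Library totals ran from 17173618 to 21651124 counts. Of the cell type markers, a summed list of 5 leaf mesophyll genes stood at 16859 to 20525 FPKM in untreated wild type, while 3 root hair genes summed to at most 0.16 FPKM and 4 root endodermis genes to at most 0.65 FPKM in any library, with CASP1, MYB36 and EXPA7 at 0 counts. A further list of 3 root genes summed to 3.66 to 6.41 FPKM in untreated wild type, 5.63 to 9.60 in the untreated line, 9.58 to 16.7 in wild type under NaCl and 30.25 to 56.5 in the line under NaCl, and its part in the results below was not tested. Most of it was PYK10 in the NaCl libraries. The others did not rise with NaCl: NRT2.1 stayed at or below 0.26 FPKM and PHO1 within 1.97 to 4.64 FPKM in every library. The mesophyll sum was 13796 to 14702 FPKM in the untreated line, 4157 to 4439 in wild type under NaCl and 521 to 2337 in the line under NaCl. A pair of NaCl libraries stood apart. Replicate 1 of the line under NaCl correlated across genes at 0.936 and 0.941 with the other libraries of its group, which correlated at 0.994 with each other, and it held the highest mesophyll sum of its group. Replicate 3 of wild type under NaCl held 8.42 FPKM of summed shoot meristem markers, with STM at 3.14 and KNAT1 at 5.28 FPKM and CLV3 at 0, against 0.48 and 0.58 FPKM in its group's other libraries. Replicate 2 of the untreated line held 2.53 FPKM of these markers, with STM at 1.41 and KNAT1 at 1.12 FPKM. The other untreated line libraries held 0.05 and 0 FPKM. Replicate 2 correlated across genes at 0.977 and 0.975 with these, which correlated at 0.984 with each other. The counts and the named genes that moved most without either NaCl library are given beside the results.

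In untreated wild type the 22 AGP genes held more transcript than the 11 FLA genes, 1125 ± 63.3 against 466 ± 14.1 summed FPKM (mean ± SD, n = 3, as throughout). Under NaCl the FLA sum was 91.5 ± 20.8 FPKM in wild type, and 28.1 ± 21.9 in the line against 215 ± 32.7 without salt. The AGP sum went the other way, to 2192 ± 143 FPKM in wild type under NaCl, and in the line from 590 ± 85.1 to 2805 ± 100.1 FPKM. In both genotypes the salt and control ranges of both sums did not overlap. These sums are levels and carry no test. AGP15, AGP1, AGP12 and AGP2, the AGP genes with the highest mean over all 12 libraries, made up 57.6% of the AGP total in untreated wild type, 66.8% in the untreated line, 89.99% in wild type under NaCl and 92.6% in the line under NaCl. AGP2 held only 0.13% in untreated wild type, where the leading genes were AGP15 (35.8%), AGP21 (15.01%), AGP12 (11.5%) and AGP16 (11.3%).

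**Figure D1:**
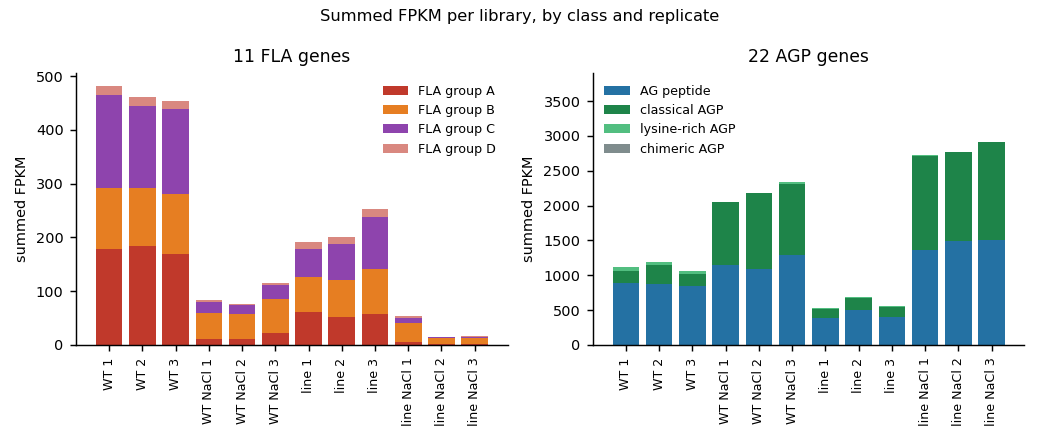
Summed FPKM (vertical axis) of the described FLA genes (left) and AGP genes (right) in each of the 12 libraries, stacked by class. The FLA sum lies between 454 and 481 FPKM in untreated wild type and at most 115 FPKM in every NaCl library, while the AGP sum lies at 2054 FPKM or more in every NaCl library and at 1189 FPKM or less in every untreated one.

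The AGP and FLA classes differ in what they encode. Read from the TAIR10.1 RefSeq genome, whose start and end matched the deposited TAIR10 coordinates for all 49 genes, the coding regions of the 8 described AG peptide genes held 58 to 74 codons. Codons for Pro, Ala, Ser or Thr made up 50 to 72.6% of those of the classical AGP genes, 53.6 to 68.1% of the lysine-rich, 38.1 to 50.8% of the AG peptide and 25.8 to 43.1% of the FLA genes. The AG peptide genes hold the largest share of the transcript and a pair of them with similar coding regions went in opposite directions under salt, so their sequences are shown. The coding sequences of AGP16 (chr2:19018730-19019108, minus strand, in 2 pieces), AGP20 (chr3:22810283-22810629, minus strand, in 2 pieces), AGP12 (chr3:4409087-4409269, plus strand) and AGP21 (chr1:20648634-20648810, minus strand) are given 5′ to 3′. Capitals mark the codons of Ala-Pro, Pro-Ala, Ser-Pro and Thr-Pro pairs, the kind of pair at which arabinogalactan is attached.
AGP16: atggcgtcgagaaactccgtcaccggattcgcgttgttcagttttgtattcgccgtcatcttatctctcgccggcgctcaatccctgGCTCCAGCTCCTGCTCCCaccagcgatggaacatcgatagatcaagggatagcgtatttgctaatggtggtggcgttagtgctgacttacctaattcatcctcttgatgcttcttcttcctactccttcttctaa
AGP20: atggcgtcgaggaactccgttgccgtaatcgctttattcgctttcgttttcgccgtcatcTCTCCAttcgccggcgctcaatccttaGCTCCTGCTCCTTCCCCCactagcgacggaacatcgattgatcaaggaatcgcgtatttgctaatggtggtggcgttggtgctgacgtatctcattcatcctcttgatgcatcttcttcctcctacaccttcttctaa
AGP12: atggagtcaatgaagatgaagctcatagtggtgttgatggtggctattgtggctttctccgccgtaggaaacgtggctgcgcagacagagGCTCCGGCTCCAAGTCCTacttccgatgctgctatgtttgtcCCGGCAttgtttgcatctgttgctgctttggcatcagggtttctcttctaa
AGP21: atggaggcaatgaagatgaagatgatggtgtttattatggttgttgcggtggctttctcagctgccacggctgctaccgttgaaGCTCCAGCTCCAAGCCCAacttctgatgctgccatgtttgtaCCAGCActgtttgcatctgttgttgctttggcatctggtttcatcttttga
The longest run of capitals holds 6 codons in each of the 4. AGP12 and AGP21 carry a further Pro-Ala pair downstream of it, and AGP20 a Ser-Pro pair upstream. Pairs were marked over the whole coding region. Which of them lie in the mature peptide or carry sugar was not tested. The coding regions of AGP16 and AGP20 were 84.2% identical and those of AGP12 and AGP21 76.6% identical over their alignments. How reads that match more than 1 of these genes were divided is not given in the sources used here, so the levels within a pair are uncertain to that extent.

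AGP16 was the abundant partner of its pair in control seedlings, at 113, 152 and 117 FPKM in untreated wild type and 84.8, 89.8 and 74.8 FPKM in the untreated line. Under NaCl it stood at 11.5, 11.9 and 14.4 FPKM in wild type and at 7.93, 21.2 and 21.4 FPKM in the line. Its salt and control libraries did not overlap in either genotype, and it fell with log2 fold changes of -3.14 ± 0.30 (± SE; edgeR quasi-likelihood test, adjusted p = 5.2e-06) in wild type and -2.05 ± 0.28 (edgeR adjusted p = 7.2e-05) in the line. AGP20 was at 27.1, 36.0 and 22.6 FPKM in untreated wild type and 24.5, 38.5 and 28.8 FPKM in the untreated line. With NaCl it was at 56.8, 58.9 and 57.1 FPKM in wild type and 52.4, 48.5 and 57.7 FPKM in the line. All 6 salt libraries were above all 6 control libraries, and AGP20 rose by a log2 fold change of 1.21 ± 0.19 (edgeR adjusted p = 0.0002) in wild type and 1.05 ± 0.18 (edgeR adjusted p = 0.0004) in the line. AGP16 overlaps AT2G46320 on the opposite strand by 228 bases, a gene with a mean of 8.29 FPKM, and whether counting used the strand is not given in the sources used here.

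AGP12 and AGP21 were both lower in the untreated line than in untreated wild type. AGP12 stood at 139, 125 and 123 FPKM in untreated wild type and at 13.3, 29.1 and 20.2 FPKM in the untreated line. The untreated line was below every wild-type library, a log2 difference of -2.72 ± 0.24 (edgeR adjusted p = 0.00018). Under NaCl AGP12 was at 302, 268 and 350.2 FPKM in wild type and at 372, 297 and 357 FPKM in the line. There the genotypes overlapped, with a log2 difference of 0.13 ± 0.22 (edgeR adjusted p = 0.67). AGP21, which in Arabidopsis has been tied to the choice of root hair fate, was at 197, 154 and 155 FPKM in untreated wild type and at 2.90, 12.2 and 11.1 FPKM in the untreated line. Its untreated difference was a log2 value of -4.36 ± 0.56 (edgeR adjusted p = 0.00082), and again no library overlapped. With NaCl it was at 44.4, 38.1 and 105 FPKM in wild type, replicate 3 being the high one, and at 29.3, 14.9 and 10.9 FPKM in the line. It was the only described gene called in opposite directions by salt, as 0.563% of all tested genes were, lower in wild type (log2 fold change -1.25 ± 0.48, edgeR adjusted p = 0.046) and higher in the line (1.34 ± 0.53, edgeR adjusted p = 0.043). The salt and control libraries of the line overlapped, 10.9 FPKM being the lowest with NaCl and 12.2 FPKM the highest without. Both calls were near the threshold. Over 22 settings of the analysis, the one reported included, the wild-type call was absent in 8 and the line call in 12. The edgeR adjusted p was 0.16 for wild type without its NaCl replicate 2 and 0.15 for the line without its NaCl replicate 1, and the test of the difference gave 2.59 ± 0.72 (edgeR adjusted p = 0.055).

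**Figure D2:**
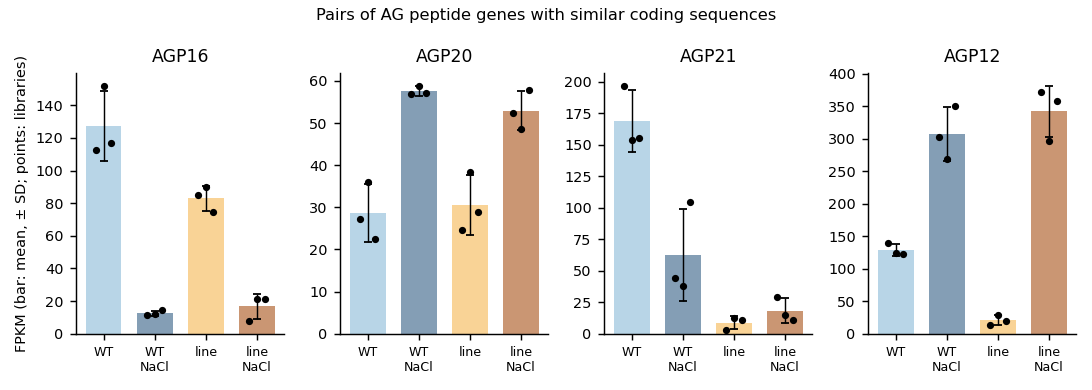
FPKM (vertical axes, each from 0) of AGP16, AGP20, AGP21 and AGP12 in the 4 groups. Bars are means, whiskers ± SD and points the 3 libraries of a group; AGP16 and AGP20 change in opposite directions under NaCl, and AGP12 and AGP21 are low in the untreated line.

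How did salt move these genes in wild type? Of the 33 described genes, 7 were called higher and 14 lower at an edgeR adjusted p under 0.05, with a median log2 fold change of -0.98. Over all 17038 tested genes 27.1% were called higher and 26.7% lower, with a median of -0.02. Among the FLA genes 8 of 11 fell and none rose, and among the AGP genes 7 of 22 rose and 6 fell. No FLA gene was higher at an unadjusted p under 0.05 either, nor by DESeq2. In bulk tissue, fewer cells of a type and less RNA per cell cannot be told apart. The summed mesophyll markers fell with the FLA genes, over the ranges given above, and their part in the FLA result was not tested.

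**Figure D3:**
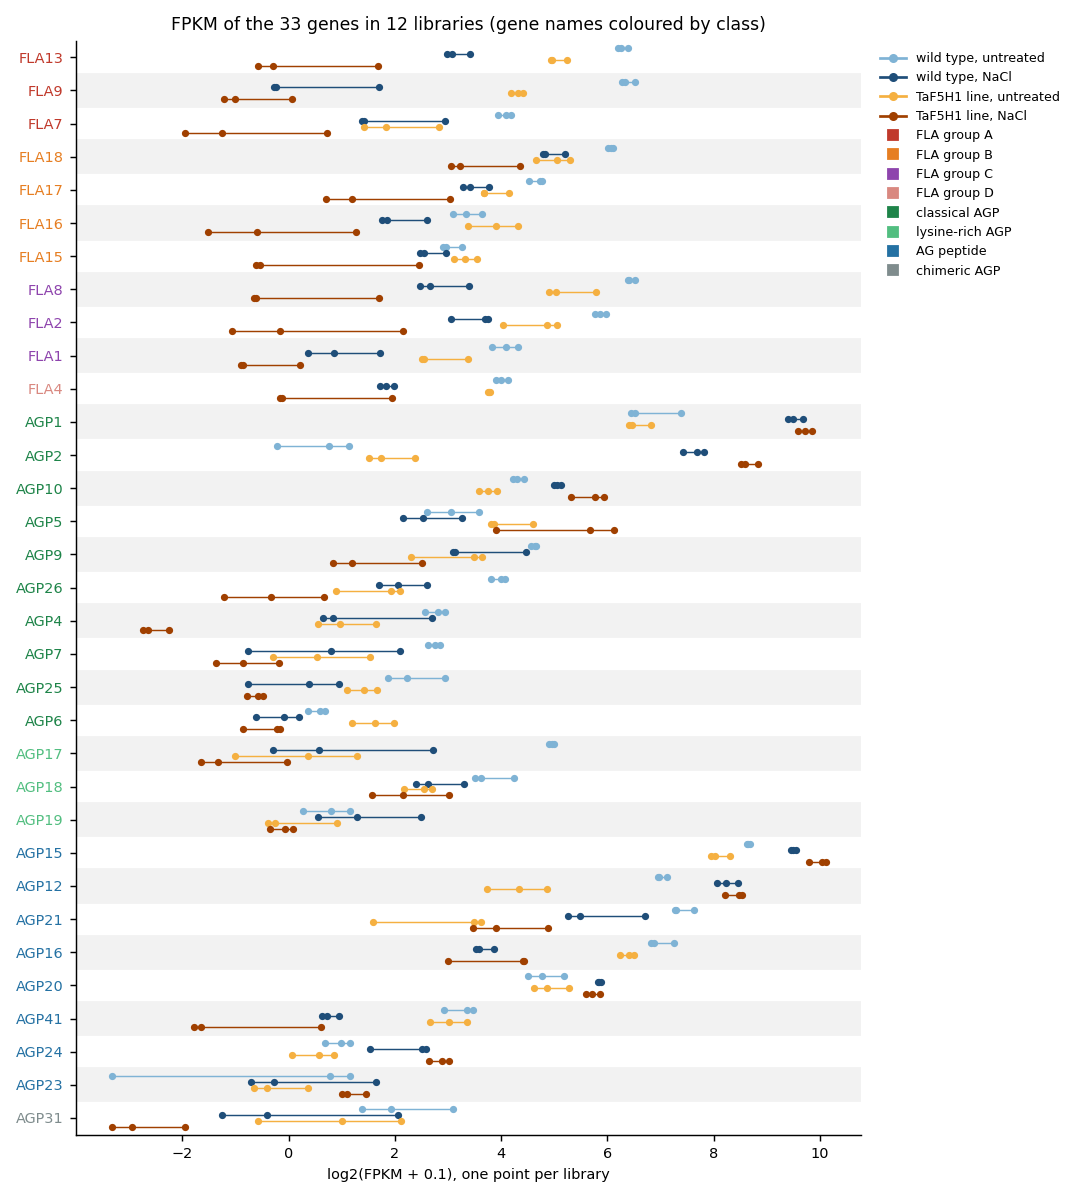
Level of each of the 33 described genes in the 12 libraries, as log2(FPKM + 0.1) on the horizontal axis, with 1 point per library, a line over the range of each group and gene names coloured by class. AGP2 spans the widest gap between untreated wild type (0.76 to 2.09 FPKM) and wild type under NaCl (171 to 226 FPKM).

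Among the FLA genes, FLA9 of group A fell furthest. It was at 77.2, 91.3 and 80.02 FPKM in untreated wild type and at 0.75, 0.73 and 3.17 FPKM under NaCl. The groups were far apart, with replicate 3 the highest of the salt libraries, and the log2 fold change of -5.57 ± 0.47 (edgeR adjusted p = 2.1e-06) was the 24th lowest of all tested genes. FLA8 of group C, also named AGP8, was at 91.7, 83.75 and 84.6 FPKM without salt and at 5.46, 6.20 and 10.4 FPKM with it. Its groups did not overlap either, and it fell by 3.37 ± 0.53 on the log2 scale (edgeR adjusted p = 0.00025). FLA13 and FLA7, the other described members of group A, fell with log2 fold changes of -2.93 and -1.80, and FLA1, tied to shoot formation in culture, and FLA2 of group C with -2.87 and -2.14. In group B only FLA18 passed the test, at -0.93 ± 0.30 (edgeR adjusted p = 0.023), and FLA17, FLA16 and FLA15 had log2 fold changes of -0.98, -1.08 and -0.19 with edgeR adjusted p of 0.09, 0.089 and 0.81. The FLA7 call was lost without untreated replicate 1 or NaCl replicate 1 or 2, and the FLA18 call without any untreated replicate or NaCl replicate 1 or 2.

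FLA4 is given by library for its role in salt tolerance. Untreated wild type held 15.8, 17.4 and 14.8 FPKM, and salt-treated wild type 3.48, 3.21 and 3.83 FPKM. These did not overlap, and FLA4 fell by 1.99 ± 0.44 on the log2 scale (edgeR adjusted p = 0.0024). In the untreated line it was at 13.8, 13.6 and 13.4 FPKM, and in the line under NaCl at 3.77, 0.82 and 0.80 FPKM, where replicate 1 was within the range of salt-treated wild type and the others were not. The fall in the line was 2.66 ± 0.46 on the log2 scale (edgeR adjusted p = 0.00037).

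AGP2, a classical AGP, showed the steepest rise. It was at 1.59, 2.09 and 0.76 FPKM in untreated wild type and at 171, 207 and 226 FPKM under NaCl. No library came near the other group, the log2 fold change was 7.29 ± 0.34 (edgeR adjusted p = 3e-08), and it was the 43rd highest of the 17038. In the line it went from 3.25, 5.11 and 2.75 FPKM to 367, 384 and 455 FPKM, a log2 fold change of 7.02 ± 0.33 (edgeR adjusted p = 3.2e-08). Its share of the AGP total went from 0.13% to 9.18% in wild type and from 0.63% to 14.3% in the line. As the most responsive member, its 250 bases upstream of the annotated start are shown from the TAIR10.1 RefSeq genome (chr2:9538964-9539213, minus strand, 5′ to 3′), a window that holds no other annotated gene. Capitals mark ACGTG on either strand, the core of the element bound by abscisic acid responsive bZIP factors.
AGP2 upstream: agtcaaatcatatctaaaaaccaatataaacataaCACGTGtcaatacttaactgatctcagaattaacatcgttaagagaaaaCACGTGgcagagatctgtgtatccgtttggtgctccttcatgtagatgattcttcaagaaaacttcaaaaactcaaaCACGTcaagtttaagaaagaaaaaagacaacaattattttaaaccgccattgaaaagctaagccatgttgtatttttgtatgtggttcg
The window held 5 overlapping matches of ACGTG at 3 places, of which those from -215 to -210 and from -166 to -161 are the palindrome CACGTG, counted from -1 at the base before the start. ACGTG, searched on both strands, was in 23.7% of the 16922 upstream windows of tested genes, in 5 of the 33 described genes, in 3 of the 7 that rose in both genotypes (AGP2, AGP10 and AGP24) and in 0 of the 12 that fell in both. CACGTG, which contains ACGTG, was in 7.7% of all windows and among the 33 only in AGP2. CCGAC, the core of the dehydration-responsive element, was in 13.5% of all windows, in 5 of the 33, in 0 of the 7 and in 3 of the 12. TTGAC, the core of the W-box bound by WRKY factors, was in 44.7%, in 11 of the 33, in 2 of the 7 and in 3 of the 12. The AGP2 window held 3 matches of TTGAC, which are not in capitals. These are counts of letters in a window and show no binding.

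The other AGP genes that rose in wild type were AGP1 (log2 fold change 2.89), AGP24 (1.57), AGP12 (1.44), AGP20, AGP15 (1.05) and AGP10 (0.94), the largest in absolute terms being AGP1, whose mean went from 115 to 739 FPKM. Of those that fell, AGP17, a lysine-rich AGP known from an Arabidopsis mutant that resists transformation by Agrobacterium, fell furthest. It was at 31.6, 31.02 and 29.9 FPKM in untreated wild type and at 1.39, 0.72 and 6.50 FPKM under NaCl. The groups did not overlap, though replicate 3 lay well above the others, and AGP17 fell by 3.26 ± 0.69 on the log2 scale (edgeR adjusted p = 0.0019). AGP16, AGP41, AGP25, AGP26 and AGP21 fell with log2 fold changes of -1.25 to -3.14. Replicate 3 of wild type under NaCl, the library with the highest meristem marker sum, was also the highest of its group for 28 of the 33 described genes. The share over all tested genes was not counted, so this may not be particular to these genes. Without that library, 11 AGP genes in place of 6 were called lower. The share of all tested genes called lower in that setting was not counted either.

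In the line, salt moved more of them: 9 of the 33 were called higher and 19 lower, with a median log2 fold change of -1.59, where 31.4% of all tested genes were called higher and 33.5% lower, with a median of -0.05. All 11 described FLA genes fell and none rose, also at an unadjusted p under 0.05. DESeq2 called 10 of them lower. Over the 12 libraries the largest FLA change was that of FLA9, from 21.2, 18.1 and 19.9 FPKM to 0.40, 0.95 and 0.33 FPKM. All salt libraries were below 1 FPKM and the log2 fold change was -4.82 ± 0.50 (edgeR adjusted p = 8e-06). FLA8 went from 29.7, 32.5 and 54.8 FPKM to 3.15, 0.55 and 0.54 FPKM. Replicate 1 was the high salt library, still far below the controls, and FLA8 fell by 4.54 ± 0.59 on the log2 scale (edgeR adjusted p = 4.3e-05). FLA13, FLA16, FLA2 and FLA1 fell with log2 fold changes of -3.22 to -4.27, and FLA4, FLA7, FLA15, FLA17 and FLA18 with -1.09 to -2.66.

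Replicate 1 carried the highest FLA sum of the salt-treated line, 53.5 FPKM against 15.2 and 15.8 FPKM, and also the highest mesophyll sum. Without it, the log2 fold change of FLA15 went from -1.94 to -3.86, that of FLA2 from -3.56 to -5.16, that of FLA4 from -2.66 to -3.79 and that of FLA9 from -4.82 to -4.62. FLA8 (-5.89), FLA13 (-5.43), FLA2 and FLA16 (-4.90) then fell further than FLA9. Among the AGP genes, AGP41 went from -3.50 to -4.99 and AGP31 from -4.87 to -6.48.

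AGP31, a chimeric AGP that binds pectin, had the largest fall of the AGP genes in the line. It was at 0.57, 4.22 and 1.92 FPKM in the untreated line and at 0.16, 0.03 and 0 FPKM under NaCl. The groups did not overlap, but the salt libraries together held 5 counts, and the log2 fold change of -4.87 ± 1.34 (edgeR adjusted p = 0.0072) is correspondingly loose. AGP4, known as JAGGER for its part in stopping extra pollen tubes from entering an ovule, fell by 4.48 ± 0.80 (edgeR adjusted p = 0.00044) to 4 counts in the group. AGP41, AGP6, AGP25, AGP26, AGP16 and AGP9 also fell, with log2 fold changes of -1.30 to -3.50, and AGP6 is otherwise known from pollen. The rises were AGP2, AGP12 (4.30), AGP1 (3.41), AGP24 (2.66), AGP10 (2.20), AGP15 (2.14), AGP5 (1.61), AGP21 and AGP20. AGP23 and AGP18 were at 1.72 ± 0.88 and 0.15 ± 0.37 and AGP17, AGP7 and AGP19 at -1.25 ± 0.90, -1.42 ± 0.73 and -0.10 ± 0.58, none past the test. The call of AGP5 was lost without NaCl replicate 2 of the line, that of FLA15 without NaCl replicate 2 or 3 or untreated replicate 3, and that of AGP9, at an edgeR adjusted p of 0.037, without 6 single libraries.

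The wild-type and line comparisons of salt share no library. AGP15, AGP1, AGP12, AGP2, AGP20, AGP10 and AGP24 were called higher in both, where 22% of all tested genes were, and 12 of the 33 lower in both, where 21.5% were. Whether the size of the response differed was tested by the genotype by salt interaction, which called 5.88% of all genes and 3 of the 33. Each of these 3 rose more in the line. In that direction 2.92% of all tested genes were called, a share that also takes in genes that fell less in the line. For AGP12 the response of the line exceeded that of wild type by 2.86 ± 0.33 on the log2 scale (edgeR adjusted p = 0.0038). Its line libraries were below wild type without salt and overlapped it with salt. AGP10 was at 18.45, 21.5 and 19.5 FPKM in untreated wild type and 31.9, 32.99 and 34.8 FPKM under NaCl. In the line it was at 11.9, 15.1 and 13.3 FPKM and then at 39.8, 54.0 and 61.4 FPKM. The line was thus below wild type without salt and above it with salt, with no overlap in either, and the responses differed by 1.26 ± 0.21 (edgeR adjusted p = 0.012).

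AGP15, an AG peptide and the most abundant transcript of the 33, had the same crossing. It was at 392.3, 402 and 413 FPKM in untreated wild type and 723, 704 and 749.7 FPKM under NaCl. In the line it went from 248, 316 and 259 FPKM to 891, 1099.8 and 1043 FPKM. No groups overlapped, and the responses differed by 1.09 ± 0.20 (edgeR adjusted p = 0.016). That call was lost without replicate 1 (adjusted p = 0.057) or replicate 2 (0.05, at the threshold) of wild type under NaCl.

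No gene of the 33 had a significantly weaker rise or deeper fall in the line over 12 libraries, where 2.95% of all tested genes did. At an unadjusted p under 0.05 there were 2 FLA and 2 AGP genes, and DESeq2 called 1 of each. This count rests on replicate 1 of the line under NaCl. Without that library, edgeR called 8 of the 11 FLA genes and 2 of the 22 AGP genes, against 23% of all tested genes, and 6 AGP genes in the other direction, against 13.8%. Then FLA15 differed by -3.70 ± 0.30 (edgeR adjusted p = 2.3e-06), FLA16 by -3.84 ± 0.51 (8.8e-05) and FLA4 by -1.83 ± 0.19 (1.3e-05), while FLA9 and FLA1 were at 0.93 ± 0.71 (0.33) and -0.90 ± 0.57 (0.24).

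**Figure D4:**
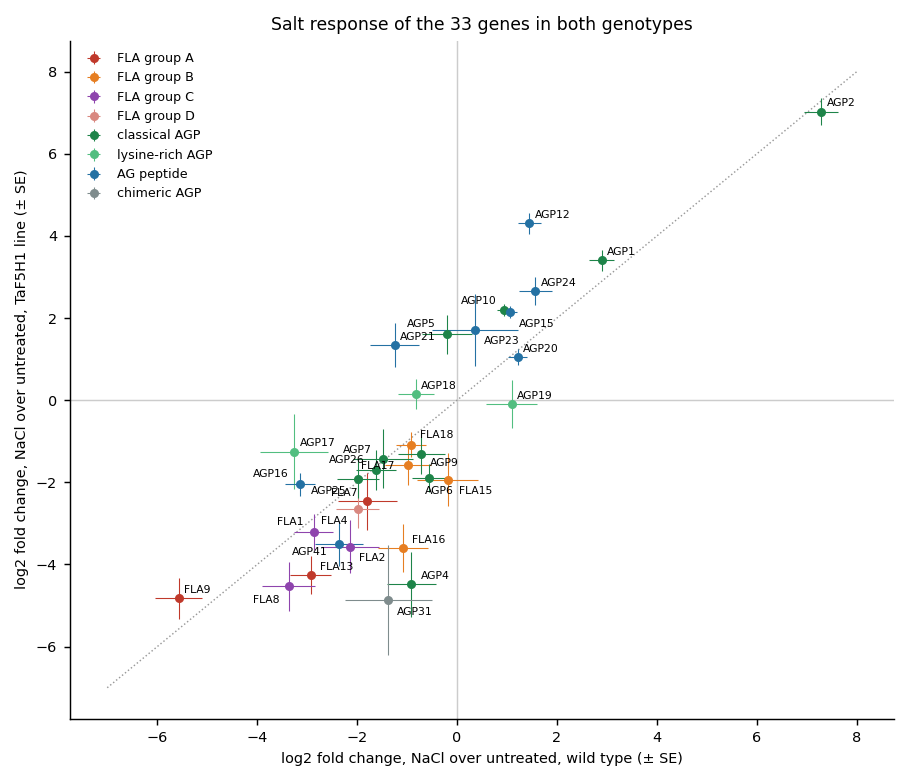
Log2 fold change by NaCl in wild type (horizontal) and in the TaF5H1 line (vertical) for the 33 described genes, with ± SE as whiskers, colours by class and a dotted line where both are equal. Every FLA gene lies in the lower left part, AGP2 in the far upper right at 7.29 and 7.02, and AGP12 well above the dotted line.

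Without salt, the line held less of many of these transcripts: 1 of the 33 was called higher and 14 lower than wild type, with a median log2 difference of -1.13. Over all tested genes 7.34% were called higher and 6.58% lower, with a median of 0.01. Among FLA genes 5 of 11 were lower and none higher (0 also at an unadjusted p under 0.05 and by DESeq2), and among AGP genes 9 of 22 were lower and 1 higher. This comparison shares the untreated wild-type libraries with the salt comparison of wild type. AGP17 differed most. It was at 0.40, 1.18 and 2.35 FPKM in the line, where wild type held 29.9 to 31.6 FPKM. The log2 difference of -4.64 ± 0.75 (edgeR adjusted p = 0.0026) was the 13th lowest of all tested genes. AGP21 and AGP12 followed, as given above. The classical AGP26 was at 14.0, 16.75 and 15.8 FPKM in wild type and at 1.75, 3.69 and 4.17 FPKM in the line. Its groups did not overlap and the log2 difference was -2.36 ± 0.41 (edgeR adjusted p = 0.004).

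The FLA genes lower in the untreated line were FLA9 (-2.16 ± 0.38), FLA7 (-2.04 ± 0.59), FLA13, FLA1 and FLA18 (-1.32 to -1.14), which took in the 3 described members of group A. FLA8, FLA2, FLA17 and FLA4 had log2 differences of -1.24, -1.25, -0.92 and -0.33 and FLA16 and FLA15 of 0.45 and 0.20, none past the test. AGP7, AGP4, AGP18, which in Arabidopsis takes part in selecting the functional megaspore, AGP10 and AGP15 were lower too, and AGP2 was higher, at 1.24 ± 0.32 (edgeR adjusted p = 0.023). AGP1 and AGP20, at -0.35 ± 0.24 and 0.01 ± 0.18, did not pass the test. The summed xylem vessel markers were also lower in the line, 2.67 to 10.4 against 11.3 to 18.1 FPKM, and their part was not tested. Of these markers only XCP2 was apart, at 1.62 to 4.75 FPKM in the line and 7.55 to 11.7 FPKM in wild type. XCP1, LAC4 and VND7 overlapped between the genotypes, and LAC4 was highest in line replicate 2, at 5.17 FPKM. Replicate 2 of the untreated line, whose meristem markers are given above, is part of this comparison. The count of lower genes is sensitive to single libraries: it was 7, 7 and 5 without wild-type replicates 1, 2 and 3, and 5 and 9 without line replicates 1 and 2. The shares of all tested genes called lower without these libraries were not counted, so this may not be particular to these genes. Without any of these 5 libraries the calls of FLA7, FLA13, FLA1 and FLA18 were lost and 1 FLA gene, FLA9, was still called. The call of AGP2 was lost without wild-type replicate 1 or 3 or line replicate 1 or 2.

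Under NaCl, 4 of the 33 were called higher in the line than in wild type and 16 lower, with a median log2 difference of -1.45. Over all tested genes 15.6% were called higher and 19% lower, with a median of -0.03. The salt-treated libraries are those of the salt comparisons above. Again 8 of 11 FLA genes were lower and none higher (0 also at an unadjusted p under 0.05 and by DESeq2). The summed xylem vessel markers were lower in the line as well, 3.18 to 11.8 against 12.9 to 28.9 FPKM, as was the mesophyll sum given above, and their part was not tested. XCP1, XCP2 and LAC4 were each lower without overlap under NaCl, and VND7 overlapped. AGP4 was at 1.68, 1.46 and 6.43 FPKM in wild type and at 0.06, 0.05 and 0.11 FPKM in the line. The groups were apart even though replicate 3 of wild type was the high one, and the log2 difference of -5.36 ± 0.77 (edgeR adjusted p = 0.0022) rests on 4 counts in the line against 181 in wild type. AGP31 was at 0.65, 0.32 and 4.05 FPKM in wild type against at most 0.16 FPKM in the line, a log2 difference of -4.71 ± 1.35 (edgeR adjusted p = 0.022). Without wild-type NaCl replicate 3 it was -2.98 and no longer called (edgeR adjusted p = 0.11).

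FLA7 was at 2.49, 2.58 and 7.64 FPKM in wild type under NaCl and at 1.54, 0.16 and 0.32 FPKM in the line. The groups did not overlap and the log2 difference was -2.70 ± 0.70 (edgeR adjusted p = 0.014), with an adjusted p of 0.06 without that replicate 3. FLA2, FLA13, FLA8, FLA16, FLA1, FLA17 and FLA18 were lower, with log2 differences of -1.30 to -2.67, and FLA15, FLA9 and FLA4 had -1.55, -1.41 and -0.99 without passing the test. Without line NaCl replicate 1, FLA15 (-3.49, edgeR adjusted p = 1.9e-07) and FLA4 (-2.15, 2.5e-07) were called, and FLA9 was not (-1.22, 0.11). AGP5, a classical AGP, was the gene most raised in the line. It was at 5.64, 9.52 and 4.37 FPKM in wild type and at 14.9, 69.3 and 51.2 FPKM in the line. Replicate 1 of the line was the low one, the groups did not overlap, and the log2 difference was 2.74 ± 0.51 (edgeR adjusted p = 0.004).

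The other AGP genes higher in the salt-treated line were AGP2 (0.97), AGP10 (0.61) and AGP15 (0.45), smaller differences than that of AGP5. The AGP15 call was lost without any replicate of wild type under NaCl or line replicate 2 or 3, the AGP10 call without line replicate 3 and the AGP2 call without wild-type replicate 1. The lower ones besides AGP4 and AGP31 were AGP17, AGP26, AGP9, AGP7, AGP19, which takes part in leaf growth, and AGP21, at -2.63 to -1.77. Of these, AGP17, AGP7, AGP19 and AGP21 lost their calls without NaCl replicate 3 of wild type and without NaCl replicate 2 or 3 of the line, as AGP31 did. The groups overlapped for AGP17 (wild type down to 0.72 FPKM, line up to 0.88 FPKM) and AGP7 (0.49 and 0.78 FPKM). Without NaCl replicate 3 of wild type the log2 difference of AGP17 went from -2.63 to -1.24 (edgeR adjusted p = 0.22), that of AGP7 from -2.06 to -1.13 (0.24), that of AGP19 from -1.89 to -1.20 (0.11) and that of AGP21 from -1.77 to -1.20 (0.096). AGP9 lost its call without NaCl replicate 3 of the line. Without NaCl replicate 3 of wild type, 7 of the 33 were called lower in place of 16, and 7 and 6 without NaCl replicates 2 and 3 of the line. FLA1, FLA7, FLA16 and FLA17 were the FLA genes lost in each case. Without line replicate 1, the library that stood apart, 20 were lower, against 30.3% of all tested genes. A fit to the 6 salt-treated libraries alone called 3 lower. Apart from the setting without line replicate 1, the shares of all tested genes called lower in these settings were not counted. The smaller counts may thus not be particular to these genes.

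**Figure D5:**
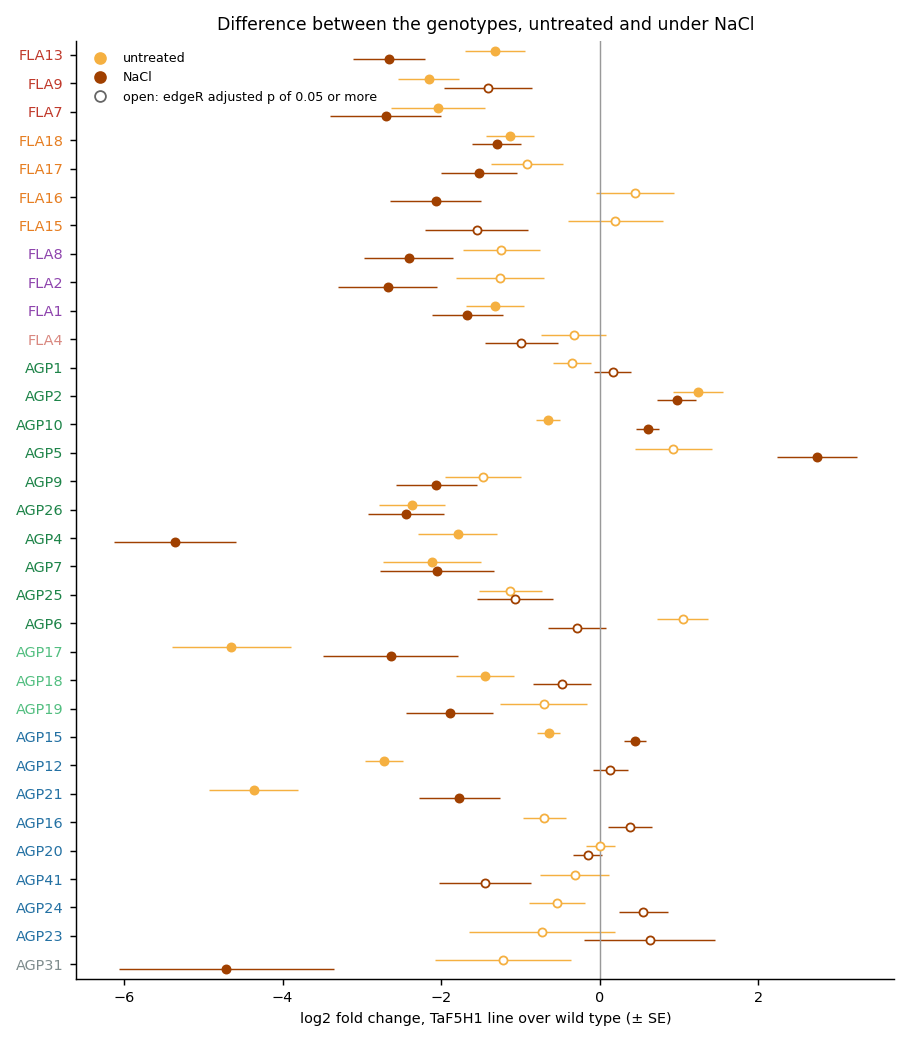
Log2 difference between the TaF5H1 line and wild type (horizontal, ± SE) without salt (light) and under NaCl (dark) for the 33 described genes, with filled points called at an edgeR adjusted p under 0.05. Most FLA genes lie left of 0 in both conditions, AGP12 is far left only without salt, and AGP5 reaches 2.74 under NaCl.

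FLA4 acts in the same genetic pathway as the receptor-like kinases FEI1 and FEI2 in Arabidopsis roots. FEI1 fell under NaCl in wild type (log2 fold change -0.90, edgeR adjusted p = 0.0098) and FEI2 was at -0.89 (edgeR adjusted p = 0.15). In the line both fell, FEI1 by 1.66 and FEI2 by 2.69 on the log2 scale, and under NaCl both were lower in the line than in wild type, at -1.13 and -2.03. Neither differed past the threshold between the untreated genotypes.

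The enzymes that make AGP sugar chains were followed in a list of prolyl 4-hydroxylases, galactosyltransferases that start the chain, enzymes that extend or trim it, GPI anchor genes and both FEI kinases, of which 34 genes were tested. Salt raised 8 and lowered 9 in wild type, and raised 9 and lowered 11 in the line. As a share, 50% and 58.8% were called, against 53.8% and 64.8% of all tested genes, so the list was near the background. The smallest adjusted p in wild type were those of AGM1, a methyltransferase of AGP glucuronic acid (log2 fold change 1.101, edgeR adjusted p = 1.1e-05), P4H9, a prolyl 4-hydroxylase (1.52, 5.6e-05), and GUS2, a glucuronidase acting on AGP (1.03, 8.5e-05). In the line they were AGM1 (1.22, edgeR adjusted p = 3.7e-06), P4H9 (2.03, 5.3e-06) and UGE4, which makes UDP-galactose (1.13, 8.7e-06). The 9 tested prolyl 4-hydroxylases split, with 4 up and 4 down in wild type and 5 up and 3 down in the line.

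Between the untreated genotypes 3 of the 34 were higher and 2 lower in the line, 14.7% called against 13.9% of all tested genes. They were led by GUS2 (log2 difference 0.83, edgeR adjusted p = 0.0035), the hydroxyproline galactosyltransferase GALT4 (-2.11, 0.014) and AGM1 (0.44, 0.024). Under NaCl 7 were higher and 4 lower, 32.4% against 34.6%, led by P4H5 (1.17, edgeR adjusted p = 0.0048), GALT3 (-0.90, 0.005) and AGM1 (0.56, 0.0056). The interaction called 1 gene up, GH43B, a galactosidase that trims the chains (1.09, edgeR adjusted p = 0.05 after rounding), and 2 down, GUS2 (-0.76, 0.047) and HPGT2 (-0.81, 0.048). These interaction calls sat at the threshold.

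Of the 16 genes below a mean of 1 FPKM, FLA3, FLA6, FLA14 and AGP30 had 0 counts in every library. FLA19, AGP40, AGP14, AGP11, AGP27, FLA5, AGP3 and AGP13 reached at least 1 FPKM in a library. AGP3 was at 0.74, 1.30 and 0.61 FPKM in untreated wild type, 45 counts in all, and at 0 counts in the other 9 libraries. Against a floor of 3 counts per group it was at least 15.5-fold lower in wild type under NaCl and in the untreated line, a bound that covers counting error only. AGP14 and AGP13, close relatives of AGP12, had their highest levels, 2.14 and 1.64 FPKM, in replicate 3 of wild type under NaCl.

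The 33 genes are spread over the 5 chromosomes, with 5, 8, 6, 3 and 11 on chromosomes 1 to 5. AGP21, AGP10, FLA16, AGP26, AGP4 and AGP19, like AGP16, overlap a gene on the opposite strand. The partners of these 6 had mean levels of at most 0.588 FPKM. Close copies were common, with coding identities of 81.5% for FLA8 and FLA10, 80.6% for FLA17 and FLA18 and 77.2% for FLA9 and FLA13. FLA10 stayed at or below 0.19 FPKM in every library, whereas the other pairs fell together under NaCl in the line.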

How the data were processed

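RNA was extracted and sequenced from 12 libraries in 4 groups of 3. Per the submitters' processing notes, bcl2fastq 2.17.1.14, cutadapt 1.9.1, HISAT2 2.0.1 and the TAIR10 build were used; the counting program, its use of strand and its handling of multiply mapped reads are unstated in the sources. The authors deposited a count and an FPKM value per gene and library, and the deposited FPKM could be recomputed from the deposited counts, exon lengths and library totals to within 0.005. P-values measure the spread between replicates called biological by the submitters.

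Counts of the 17038 genes with a mean of at least 1 FPKM were fitted in a single model of 4 group means with TMM factors and tested with edgeR 4.0.16 (quasi-likelihood, R 4.3.3), with Benjamini-Hochberg adjustment over all tested genes and a threshold of 0.05. The fit was tested on simulated data in which few genes changed, in a single group. That setting does not cover comparisons such as those of salt, where most tested genes were called. Alternatives were library totals, median-of-ratios factors, other filters, DESeq2 1.42.0, limma 3.58.1 on log2(FPKM + 1) or log2(FPKM + 0.1), fits to single comparisons, a replicate block and leaving out each library. Members and gene lists were chosen with earlier results of these data known. Per-library values were printed for the 4 called genes with the largest absolute log2 change in each comparison, and for AGP16, AGP20 and FLA4, chosen after their values were seen or for their role; of the enzyme list the 3 called genes with the smallest adjusted p were named, and FEI1 and FEI2 for their role. Sequences were read from the TAIR10.1 RefSeq genome and aligned globally over the coding region. Protein sequences were not used here.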

Additional observations from a re-analysis of the deposited data

Results flagged for a closer look

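The salt response differed between the genotypes by an interaction test for 3 genes. The edgeR quasi-likelihood test called 2.92% of all tested genes in the same direction, a stronger rise or a smaller fall in the line. The log2 response in the line exceeded the one in wild type by 2.86 for AGP12 (edgeR adjusted p = 0.0038), 1.26 for AGP10 (0.012) and 1.09 for AGP15 (0.016). AGP12 and AGP10 kept their calls without each library in turn, and AGP15 lost its call without NaCl replicate 1 or 2 of wild type.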

How the results depend on the processing

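Of 3382 alternative values for single genes, 3111 kept their side of the threshold, 165 lost a call and 106 gained one. In 45 of the 3111, for genes not called, the sign differed; no called value turned sign. Library totals alone moved the median of all genes to -0.22 and -0.31 (salt in wild type and in the line); no direction of a called gene turned.

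For the line without salt against wild type (1 gene higher), library totals, DESeq2, both limma settings and the fit to that comparison alone gave 2 higher. Enzyme genes lower (2) became 1 with library totals, no filter, limma on log2(FPKM + 0.1) and the replicate block, 4 with DESeq2 and 5 in the fit to that comparison alone. Under salt, the fit to that comparison alone gave 2 higher and 3 lower genes and 2 and 1 enzyme genes. Enzyme genes lowered by salt in the line were 6 at a filter of 5 FPKM, which left GALT4, HPGT3, GALT29A, RAY1 and P4H12 untested. For the interaction, DESeq2 and limma on log2(FPKM + 1) gave 6 genes up; library totals and both limma settings gave 1 down and DESeq2 2. Enzyme genes up were 0 with library totals, no filter, both limma settings and the replicate block and 3 with DESeq2; those down were 0 with median-of-ratios factors or no filter and 1 with the block.

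Leaving out each library in turn, salt in wild type gave 7 to 8 genes up and 11 to 19 down (enzyme genes 8 to 10 and 5 to 10), salt in the line 8 to 9 and 17 to 19 (9 to 11 and 9 to 10), the untreated genotypes 0 to 3 and 5 to 21 (1 to 6 and 1 to 9), the salt-treated genotypes 2 to 5 and 6 to 20 (4 to 11 and 2 to 8) and the interaction 2 to 6 and 0 to 10 (0 to 7 and 0 to 7). The range down of the interaction, like the highest counts of the untreated genotypes, comes from leaving out replicate 1 of the line under NaCl. The cause was not tested. Shares of all tested genes were counted only without that replicate, for the salt-treated genotypes and the interaction. The other ranges may thus not be particular to these genes.

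Deviations of same-numbered libraries from their group means correlated across genes at -0.28 to 0.27, with 4 of 18 over 0.1. Differently numbered libraries were not compared, so these values cannot decide whether replicate numbers pair the libraries. Genes with few counts, such as AGP31, AGP4 and AGP3, are limited by depth.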
